A study of Mus musculus with 24 samples.

Results

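Epithelial ion and water transport genes of the mouse lung were followed in 24 lung RNA-seq libraries. The 9 genes were chosen by name as the sodium, chloride and water transporters that move lung liquid: Scnn1a, Scnn1b and Scnn1g (epithelial sodium channel), Atp1b1 (sodium pump), Cftr, Slc26a4, Slc26a9 and Ano1 (anion transport) and Aqp5 (water channel). All 9 were found among the 26253 genes of the count table, and all 9 were among the 16153 genes that passed the filter on low counts. Before exposure to filtered air or to ozone, an oxidant gas, mice ate either a control diet or one enriched in docosahexaenoic acid (DHA, an omega-3 fatty acid), which gave 4 groups of 6 libraries each: control diet with air, control diet with ozone, DHA diet with air and DHA diet with ozone. The labels name lung as the tissue and name no strain, age, sex, ozone concentration or sampling time, and they do not say whether each library was 1 mouse. The p-values therefore measure the spread between libraries, which may be partly technical.

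Lung liquid is set by opposed flows of salt. Sodium enters epithelial cells through the apical channel ENaC, built from the alpha, beta and gamma subunits that Scnn1a, Scnn1b and Scnn1g encode, and is pumped out at the basal side by the Na,K-ATPase, whose beta subunit Atp1b1 brings the catalytic subunit to the membrane. Water follows, partly through aquaporins, and the liquid film is cleared. Chloride and bicarbonate leave through CFTR, the cystic fibrosis channel, through ANO1, a channel opened by calcium, and through the SLC26 family: SLC26A4 (pendrin) exchanges chloride for bicarbonate and other anions, and SLC26A9 carries chloride.

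Promoter sequences set the 4 genes that changed after ozone (Slc26a4, Scnn1g, Aqp5 and Ano1) beside Slc26a9, the other SLC26 gene, whose level did not pass the test. Each line is the 250 bases before the transcription start, 5′ to 3′ on the gene's own strand, from RefSeq on GRCm38.p6; capitals mark TATAAA, with its reverse complement TTTATA where both overlap.
Slc26a4: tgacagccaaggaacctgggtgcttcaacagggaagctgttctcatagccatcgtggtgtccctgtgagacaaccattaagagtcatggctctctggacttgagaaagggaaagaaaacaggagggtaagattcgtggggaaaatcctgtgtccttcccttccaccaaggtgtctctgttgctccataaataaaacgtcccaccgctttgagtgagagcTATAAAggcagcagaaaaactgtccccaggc
Slc26a9: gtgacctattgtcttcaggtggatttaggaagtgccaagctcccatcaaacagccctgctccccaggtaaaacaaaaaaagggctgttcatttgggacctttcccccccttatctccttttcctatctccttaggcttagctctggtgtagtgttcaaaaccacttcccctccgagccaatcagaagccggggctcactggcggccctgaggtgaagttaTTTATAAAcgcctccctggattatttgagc
Scnn1g: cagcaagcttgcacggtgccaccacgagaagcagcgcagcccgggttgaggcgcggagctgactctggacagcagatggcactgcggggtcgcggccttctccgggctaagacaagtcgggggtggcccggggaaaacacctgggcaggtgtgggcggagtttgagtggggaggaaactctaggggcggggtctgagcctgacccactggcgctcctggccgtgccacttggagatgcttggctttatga
Aqp5: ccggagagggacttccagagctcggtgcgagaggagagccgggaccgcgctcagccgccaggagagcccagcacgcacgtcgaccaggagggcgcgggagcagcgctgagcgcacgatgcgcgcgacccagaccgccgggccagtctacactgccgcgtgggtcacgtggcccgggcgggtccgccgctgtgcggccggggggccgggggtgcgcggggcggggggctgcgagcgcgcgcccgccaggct
Ano1: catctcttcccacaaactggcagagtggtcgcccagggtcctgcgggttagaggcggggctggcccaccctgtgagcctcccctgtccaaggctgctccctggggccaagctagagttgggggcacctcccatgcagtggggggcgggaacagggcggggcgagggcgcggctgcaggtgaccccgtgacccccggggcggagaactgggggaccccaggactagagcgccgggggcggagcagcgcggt
These windows lie at chr12:31559985-31560234 (Slc26a4, minus strand), chr1:131743772-131744021 (Slc26a9, plus), chr7:121734229-121734478 (Scnn1g, plus), chr15:99590778-99591027 (Aqp5, plus) and chr7:144738574-144738823 (Ano1, minus). RefSeq entries matched 8 of the 9 genes, Scnn1a being the exception. TATAAA was found in Slc26a4, at bases -31 to -26 from the start, and in Slc26a9, at -28 to -23 with the reverse complement at -30 to -25, and in no other of the 8. Among all 32851 promoter windows of this length, 12.4% held TATAAA on either strand. The same 2 genes had the lowest GC content, 49.6% for Slc26a4 and 50% for Slc26a9, against 60.8% to 78.4% in the other 6 and a median of 52.4% over all windows. The STAT-type palindrome TTCNNNGAA, its STAT6-type form with a longer spacer, and the forkhead-type letters TGTTTAC and TGTTTAT were searched on both strands. None was in any of the 8 windows, while 7.02%, 5.85%, 3.17% and 4.16% of all windows held them. A match or its absence describes these letters only.

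Libraries held 18053493 to 26225630 counts. Levels are given as CPM (a gene's count per 1e6 counts of the library, scaled for library composition), with n = 6 libraries per group throughout. A gene was called changed at a Benjamini-Hochberg adjusted p under 0.05 in edgeR's quasi-likelihood test. Over 79 ribosomal protein genes, the first 3 of the control-diet air libraries were low, with a mean log2 CPM of 6.00 to 6.07 against 6.14 to 6.45 in the other 21. DHA-diet ozone library 1 had the lowest summed club cell markers (59299 CPM) and ciliated cell markers (267 CPM) of all 24, and DHA-diet ozone libraries 1 and 2 had the highest neutrophil markers (228 and 297 CPM). Several results are also given without these libraries, but not every one. In bulk lung RNA, fewer cells of a type and less RNA per cell cannot be told apart. Alveolar type 1, alveolar type 2, club and ciliated markers were present in every library. Foxi1, which defines the CFTR-rich ionocyte, had 0 or 1 count in every library, and Ascl3, another ionocyte gene, 0 to 11 counts. The other 3 of 5 ionocyte markers were above the filter: Atp6v1c2 at 59.2 to 104 CPM, Atp6v0d2 at 11.2 to 24.9 CPM and Stap1 at 2.08 to 5.09 CPM, and 1 of these 3 (Atp6v0d2) was called higher after ozone on each diet. Most of the summed level of these 5 markers came from Atp6v1c2, so the sum is not read as a level of ionocytes. It was 111 to 126 CPM in control-diet air, 112 to 124 in control-diet ozone, 101 to 110 in DHA-diet air and 84.4 to 128 in DHA-diet ozone.

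Per kilobase of exon, levels differed widely between the 9 genes. In control-diet air libraries, Aqp5 (mean 199 ± 10.3 CPM per kb, SD) and Atp1b1 (188 ± 20.1) were the most abundant, and their ranges overlapped. The ENaC subunits followed, Scnn1b at 86.9 ± 7.30 and Scnn1a at 79.5 ± 7.79, which overlapped, and then Scnn1g at 49.5 ± 3.23, below both in every library. Ano1 stood at 17.9 ± 1.59 and Slc26a9 at 5.48 ± 0.69. Slc26a4 (1.52 ± 0.552) and Cftr (1.38 ± 0.177) were lowest and overlapped. After ozone that last pair separated: on this scale Slc26a4 ran from 2.24 to 4.98 on the control diet and from 2.45 to 6.24 on the DHA diet, while Cftr ran from 1.16 to 1.35 and from 1.21 to 1.61.

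**Figure D1:**
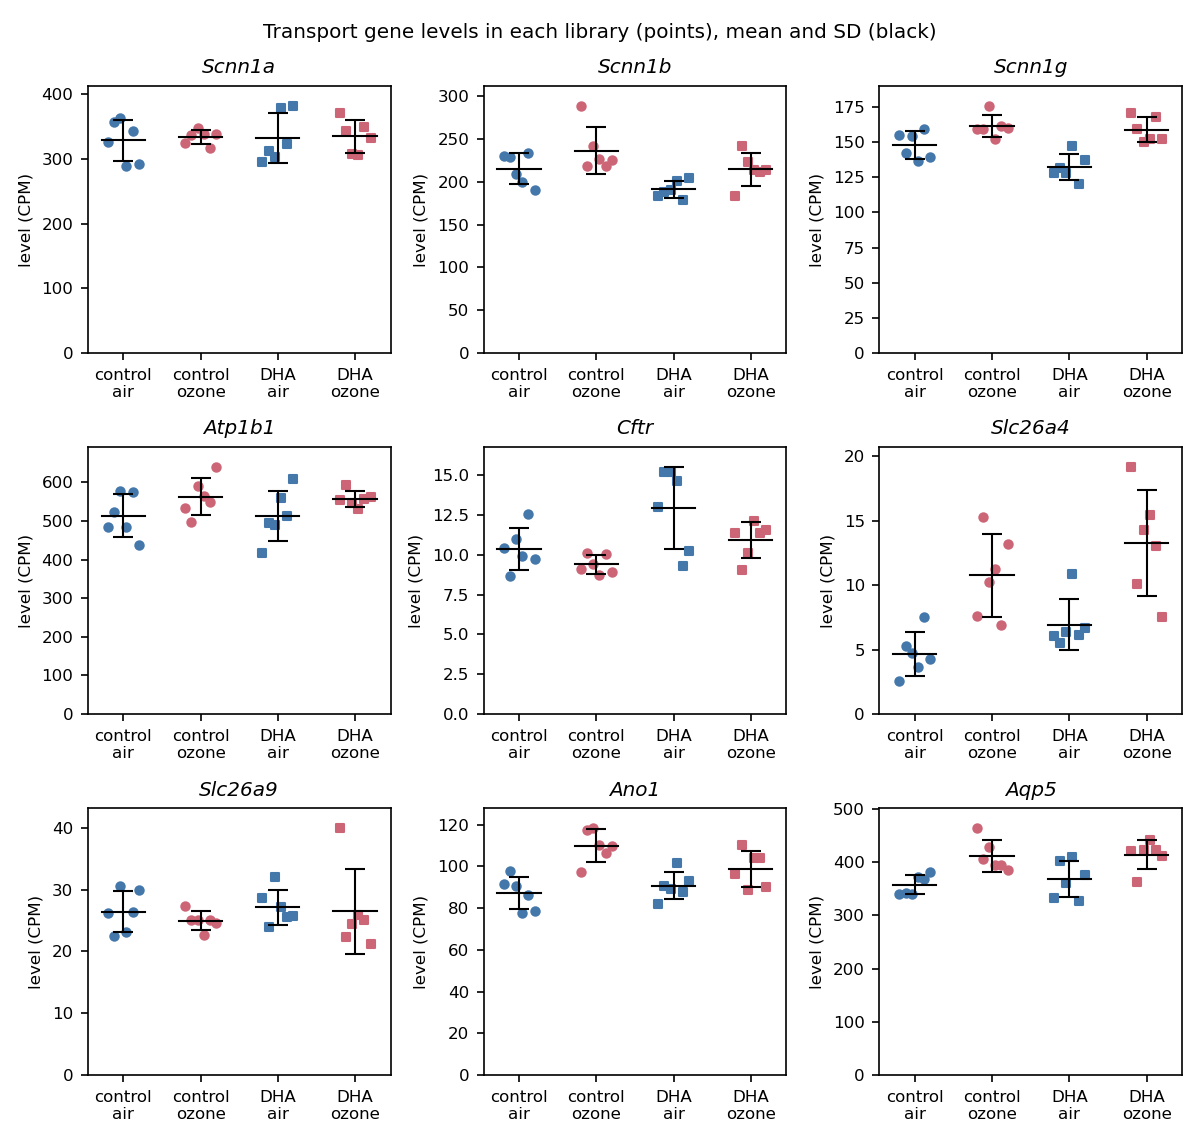
Levels of the 9 genes, in CPM on linear axes from 0, in each of 24 libraries (points; circles control diet, squares DHA diet, blue air, red ozone), with the mean and SD of each group in black. Slc26a4 is higher after ozone on both diets, Scnn1g is separated from air on the DHA diet, and the Scnn1a ranges of the 4 groups overlap.

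After ozone 3 of the 9 genes rose on the control diet: Slc26a4 2.31-fold, Ano1 1.26-fold and Aqp5 1.15-fold. On the DHA diet 3 genes rose, Slc26a4 1.92-fold, Scnn1g 1.20-fold and Aqp5 1.12-fold. None of the 9 was called lower on either diet. Over all genes tested, 16.8% were called on the control diet, 8.93% as higher and 7.87% as lower, and 23.7% on the DHA diet, 12.7% as higher and 11% as lower. The median log2 fold change of the 9 genes was 0.13 on the control diet and 0.12 on the DHA diet, and that of all genes was -0.01 on both. The ozone groups of one diet share no library with those of the other, but a single fit of all 24 libraries gave the spread for both.

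Slc26a4 (pendrin), at chr12:31569813-31609984 on mm39, gave the largest change among the 9 on both diets. Its level on the control diet was 2.56 CPM at the lowest, 4.51 at the median and 7.54 at the highest in air, and 6.87, 10.8 and 15.3 after ozone. In 5 of 6 ozone libraries it was above every air library. The log2 fold change was 1.21 ± 0.238 (SE; adjusted p = 0.00105, edgeR quasi-likelihood test). Lowest, median and highest levels on the DHA diet were 5.51, 6.24 and 10.9 CPM in air and 7.54, 13.7 and 19.2 CPM after ozone. Here 4 of 6 ozone libraries were above every air library, and the log2 fold change was 0.94 ± 0.227 (edgeR adjusted p = 0.00347). The gene was among the least abundant, at 57 to 498 counts per library, and its spread was wide, with an SD of 28.3% to 36.3% of the mean within groups. The call held in all 36 alternatives on each diet, including without control-diet air libraries 1 to 3 (1.06, adjusted p = 0.0223) and without DHA-diet ozone libraries 1 and 2 (0.87, adjusted p = 0.0104). Thyroid follicles also make pendrin. Of 5 thyroid markers, 3 passed the filter and none was called after ozone on either diet in edgeR. Their summed level was 2.53 to 4.07 CPM in control-diet air, 2.16 to 3.25 in control-diet ozone, 2.03 to 6.19 in DHA-diet air and 2.21 to 3.47 in DHA-diet ozone. Pax8 had 0 to 2 counts per library, while Tg had 17 to 119, Slc5a5 7 to 33 and Tshr 0 to 27. The part of thyroid RNA in the Slc26a4 values was not tested.

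Cftr, at chr6:18170686-18322769, was not called after ozone on either diet. Control-diet levels ran from 8.65 through a median of 10.2 to 12.6 CPM in air and from 8.72 through 9.29 to 10.1 CPM after ozone, with a log2 difference of -0.14 (95% interval -0.37 to 0.09). DHA-diet levels ran from 9.32 through 13.8 to 15.2 CPM in air and from 9.04 through 11.4 to 12.1 CPM after ozone. The groups overlapped: DHA-diet air libraries 5 and 6, at 9.32 and 10.2 CPM, were below the other 4 at 13 to 15.2 CPM. The log2 difference was -0.24 (-0.47 to -0.02, adjusted p = 0.112), and it passed the test without library 5 (-0.32, edgeR adjusted p = 0.0277) or without library 6 (-0.30, edgeR adjusted p = 0.0497).

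The count ratio of Slc26a4 to Cftr sets the exchanger against the channel within each library. On the control diet it was 0.246 to 0.614 in air and 0.685 to 1.51 after ozone, with no overlap. DHA-diet ratios were 0.362 to 0.741 in air and 0.653 to 1.69 after ozone, where library 6 (0.653) fell within the air range. The Ano1 to Cftr ratio overlapped on both diets, with 6.88 to 11.3 in air and 10.6 to 12.6 after ozone on the control diet. On the DHA diet it was 5.85 to 9.41 and 7.79 to 12.2. Counts are not corrected for gene length in these ratios. They reuse the counts of the single genes and are no separate test, and the share of all gene pairs that separate was not counted.

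Ano1, at chr7:144142286-144292311, the calcium-activated chloride channel of secretory airway cells and smooth muscle, rose on the control diet. Levels were 77.9, 88.6 and 97.6 CPM (lowest, median and highest) in air and 97.3, 110 and 119 CPM after ozone, and 5 of 6 ozone libraries were above every air library. The log2 fold change was 0.33 ± 0.064 (edgeR adjusted p = 7.49e-04). Control-diet air libraries 1 to 3 held 90.7 to 97.6 CPM and libraries 4 to 6 held 77.9 to 86.5 CPM. The log2 fold change was 0.43 without the first 3 and 0.23 (edgeR adjusted p = 0.0288) without the last 3. DHA-diet levels were 82.1, 89.7 and 102 CPM in air and 88.5, 100 and 110 CPM after ozone. The groups overlapped, and the log2 difference of 0.12 (-0.01 to 0.25, adjusted p = 0.164) did not pass. Smooth muscle markers (Acta2, Myh11, Cnn1, Tagln and Des) were called higher after ozone for 1 of 5 genes on the control diet and 4 of 5 on the DHA diet. Their summed level was 570 to 882 CPM in control-diet air, 720 to 798 in control-diet ozone, 548 to 673 in DHA-diet air and 786 to 894 in DHA-diet ozone, and their part in the Ano1 result was not tested.

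Slc26a9, at chr1:131671760-131698144, was not called after ozone. Its levels were 22.5, 26.3 and 30.6 CPM in control-diet air and 22.7, 25.1 and 27.4 CPM in control-diet ozone. DHA-diet levels were 23.9, 26.4 and 32.0 CPM in air and 21.2, 24.7 and 40.0 CPM after ozone. The ozone difference was -0.08 (-0.32 to 0.15) on the control diet and -0.03 (-0.26 to 0.20) on the DHA diet, and all ranges overlapped. The highest value, 40.0 CPM, came from DHA-diet ozone library 1, which also had the highest Slc26a4 of all 24 libraries (19.2 CPM).

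Of the 3 ENaC subunit genes, Scnn1g was called on the DHA diet and the other 2 on neither diet. Scnn1g (gamma), at chr7:121333702-121367706, rose on the DHA diet from 120, 130 and 148 CPM in air to 150, 156 and 170 CPM after ozone. The groups did not overlap, a separation seen for 9.03% of all genes in that comparison. The log2 fold change was 0.26 ± 0.051 (edgeR adjusted p = 5.06e-04), and it was 0.24 (adjusted p = 0.00312) without DHA-diet ozone libraries 1 and 2. On the control diet Scnn1g was at 137, 148 and 160 CPM in air and 152, 160 and 176 CPM after ozone. Here 4 of 6 ozone libraries were above every air library, and the log2 difference of 0.13 (0.02 to 0.23, adjusted p = 0.0898) did not pass. Whether the ozone change differed between diets is answered by the interaction, given below with the diet comparisons.

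Scnn1b (beta), at chr7:121464261-121517952, lies 96554 bases from Scnn1g on the same chromosome. Levels were 190, 219 and 234 CPM in control-diet air and 218, 226 and 289 CPM in control-diet ozone, with a log2 difference of 0.13 (-0.00 to 0.27, adjusted p = 0.181). Those on the DHA diet were 179, 189 and 205 CPM in air and 183, 214 and 242 CPM after ozone. There 5 of 6 ozone libraries were above every air library, and the exception was ozone library 1 at 183 CPM. The DHA-diet difference was 0.17 (0.03 to 0.31, adjusted p = 0.0738). It passed in limma-voom (0.18, adjusted p = 0.0161), in edgeR without DHA-diet ozone library 1 (0.21, adjusted p = 0.0191) and in edgeR without control-diet ozone library 1 (0.18, adjusted p = 0.0299). The club marker sum moved with Scnn1b in these 2 libraries. Control-diet ozone library 1 had the highest club sum (142460 CPM) and the highest Scnn1b (289 CPM) of all 24. DHA-diet ozone library 1 had the lowest club sum and ranked 23 for Scnn1b. Most of this sum was Scgb1a1, at 53931 CPM at the lowest and 128350 CPM at the highest. Scgb3a2 was highest in control-diet ozone (3613 CPM), Cyp2f2 in control-diet air (8265 CPM) and Aldh1a1 in DHA-diet ozone (2932 CPM). Summed ciliated markers ranked 3 and 24 of 24 in the same 2 libraries. None of 4 club markers was called in any comparison by edgeR, and the part of club cells in the Scnn1b values was not tested.

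Scnn1a (alpha), at chr6:125298303-125321906, did not pass the test in any comparison. It stood at 289, 334 and 363 CPM in control-diet air, 316, 337 and 348 in control-diet ozone, 295, 317 and 382 in DHA-diet air, and 305, 337 and 371 in DHA-diet ozone. The ozone difference was 0.02 (-0.12 to 0.16) on the control diet and 0.01 (-0.13 to 0.15) on the DHA diet. These intervals bound any change to a log2 value of 0.16 or less, and the sign of both differences turned under other settings.

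Count ratios put the subunits side by side within a library. The Scnn1g to Scnn1a ratio was 0.360 to 0.433 in DHA-diet air and 0.458 to 0.498 in DHA-diet ozone, with no overlap. On the control diet it was 0.398 to 0.478 in air and 0.450 to 0.510 after ozone, which overlapped. The Scnn1b to Scnn1a ratio overlapped on both diets, with 0.576 to 0.706 in air and 0.649 to 0.893 after ozone on the control diet, and 0.534 to 0.627 and 0.493 to 0.729 on the DHA diet. So did the Scnn1b to Scnn1g ratio, at 1.36 to 1.61 and 1.35 to 1.82 on the control diet. On the DHA diet it was 1.37 to 1.49 in air and 1.07 to 1.52 after ozone. The Scnn1g ratio reuses the called Scnn1g counts and is no separate test, and the share of all gene pairs that separate was not counted.

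**Figure D2:**
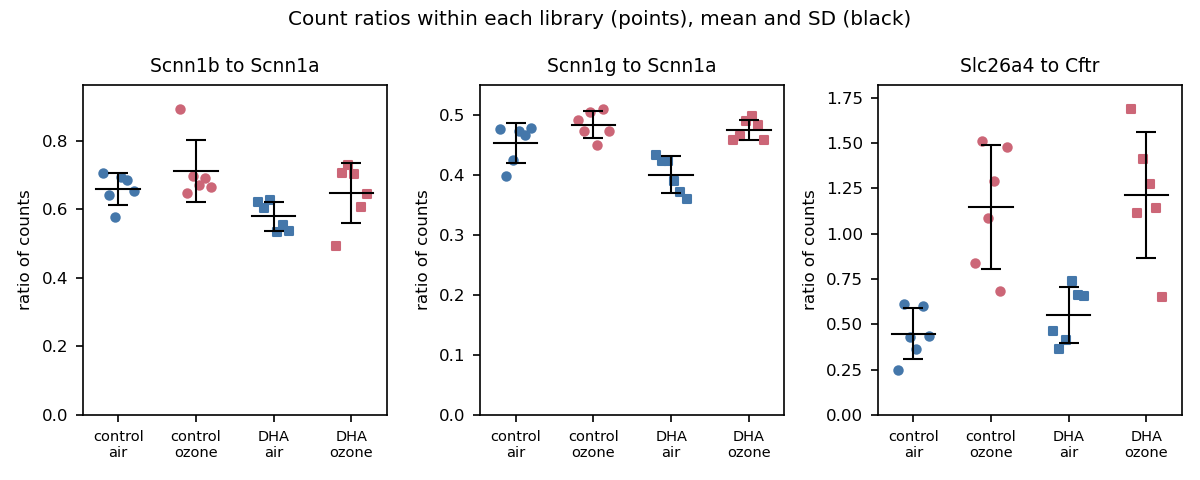
Ratios of raw counts between pairs of genes in each library (points; circles control diet, squares DHA diet, blue air, red ozone; linear axes from 0), with the mean and SD of each group in black. The Scnn1g to Scnn1a ratio separates DHA-diet air (0.360 to 0.433) from DHA-diet ozone (0.458 to 0.498), and the Slc26a4 to Cftr ratio separates control-diet air from control-diet ozone. The share of all gene pairs that separate was not counted.

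Atp1b1, the pump's beta subunit at chr1:164264668-164285925, was not called. Levels were 439, 504 and 577 CPM in control-diet air and 499, 558 and 641 CPM in control-diet ozone. DHA-diet levels were 418, 504 and 608 CPM in air and 530, 556 and 594 CPM after ozone. The ozone difference was 0.13 (-0.02 to 0.29, adjusted p = 0.234) on the control diet and 0.12 (-0.03 to 0.27, adjusted p = 0.262) on the DHA diet. In DHA-diet ozone all 6 libraries were above the air median, but none was above the highest air library. The gene overlaps Nme7 (mean 15.5 CPM), and no source used here gives the strand setting of the counting.

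Aqp5, the water channel at chr15:99488909-99492711 that marks mouse alveolar type 1 cells and glands, was called on both diets, with a small change. On the control diet it was at 341, 355 and 382 CPM in air and 385, 400 and 464 CPM after ozone. The groups did not overlap, as held for 7.76% of all genes, and the log2 fold change was 0.20 ± 0.059 (edgeR adjusted p = 0.0182). Control-diet air libraries 1 to 3 held 341 to 343 CPM and libraries 4 to 6 held 368 to 382 CPM. Without the first 3 the difference was 0.13 and did not pass (adjusted p = 0.248). Levels on the DHA diet were 327, 369 and 409 CPM in air and 362, 422 and 442 CPM after ozone, with 5 of 6 ozone libraries above every air library. The log2 fold change was 0.17 ± 0.059 (edgeR adjusted p = 0.0373), and this call was lost in 11 of 36 alternatives: among them leaving out DHA-diet air library 1, 3 or 5 or DHA-diet ozone library 1, 3, 4, 5 or 6, with values of 0.14 to 0.20 over all left-out libraries and an adjusted p of at most 0.0885 over all alternatives. Alveolar type 1 markers were called higher for 2 of 5 genes on each diet. Their summed level was 3803 to 4204 CPM in control-diet air, 4224 to 4658 in control-diet ozone, 3529 to 4547 in DHA-diet air and 4030 to 4666 in DHA-diet ozone. Most of the sum was Ager and Hopx, whose medians, like that of Pdpn, were higher after ozone on both diets. Rtkn2 medians in air and ozone were 168 and 158 CPM (control diet) and 172 and 163 CPM (DHA diet). Those of Clic5 were 616 and 642 CPM, then 687 and 613 CPM. The part of alveolar type 1 cells in the Aqp5 result was not tested. Of 4 salivary gland markers, 2 were at 0 in every library and 1 (Bhlha15) passed the filter and was called higher on each diet. Dcpp1 had 0 or 1 count in every library, so the summed level of these markers was almost all Bhlha15. It was 1.45 to 2.82 CPM in control-diet air, 2.66 to 5.62 in control-diet ozone, 1.77 to 2.66 in DHA-diet air and 2.45 to 6.55 in DHA-diet ozone. The part of gland RNA in the Aqp5 result was likewise not tested.

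**Figure D3:**
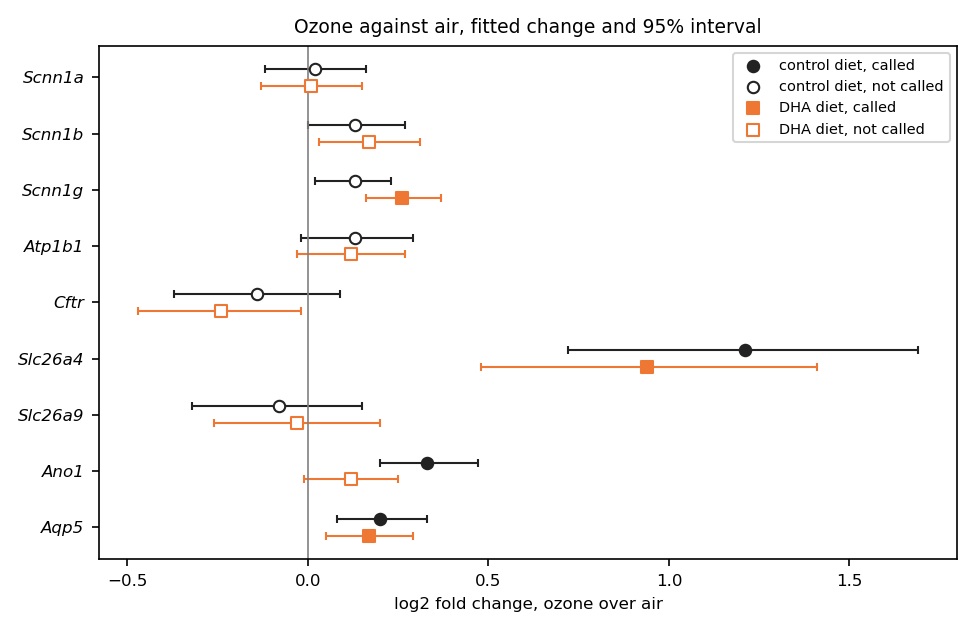
Fitted log2 fold changes of ozone over air with 95% intervals for the 9 genes (black circles control diet, orange squares DHA diet, filled where the gene was called). Slc26a4 stands far to the right at 1.21 and 0.94, and all other values lie between -0.24 and 0.33.

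Between diets, none of the 9 genes passed the threshold in edgeR. In air, edgeR called 0 of 9, against 1.15% of all genes tested (0.724% higher, 0.427% lower). Unadjusted p was under 0.05 for 4 of the 9 and for 2798 of all 16153 genes. DESeq2 called 1 of the 9 (Scnn1g) and 589 of all genes, limma-voom 0 and 849. Scnn1g was lower on the DHA diet, with a log2 difference of -0.16 (-0.27 to -0.06, adjusted p = 0.096); 4 of 6 DHA-diet libraries were below every control-diet library. The DESeq2 difference was -0.16 (adjusted p = 0.047), and edgeR passed it without control-diet air library 6 (-0.19, adjusted p = 0.0428) and without libraries 4 to 6 (-0.20, adjusted p = 0.0332). Without libraries 1 to 3 the difference was -0.14 (adjusted p = 0.317). Scnn1b differed by -0.17 (-0.31 to -0.03, adjusted p = 0.18), also with 4 of 6 below. Cftr differed by 0.32 (0.09 to 0.54, adjusted p = 0.131) and Slc26a4 by 0.57 (0.07 to 1.07, adjusted p = 0.221). All 6 DHA-diet air libraries were above the control-diet median for Slc26a4, though 1 alone, library 4, was above the highest control-diet library. The differences of the other 5 genes lay between -0.00 and 0.06. The air ranges of the diets overlapped for all 9 genes, while 1.85% of all genes did not overlap.

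After ozone, edgeR called 0 of 9 between diets and 0.0% of all genes. Unadjusted p was under 0.05 for 2 of the 9 and for 2260 of all genes; DESeq2 called 0 of the 9 and 75 of all genes, limma-voom 0 and 19. Those 2 genes were Ano1, at -0.15 (-0.28 to -0.02, adjusted p = 0.28), and Scnn1b, at -0.14 (-0.28 to -0.00, adjusted p = 0.355). Ano1 ran from 97.3 to 119 CPM on the control diet and from 88.5 to 110 CPM on the DHA diet, and 3 of 6 DHA-diet libraries were below every control-diet library. The ozone ranges of the diets overlapped for all 9 genes, while 0.83% of all genes did not overlap. Slc26a4 differed by 0.31 (-0.15 to 0.76) and Cftr by 0.22 (-0.01 to 0.45). Scnn1g, which had differed by -0.16 in air, differed by -0.02 (-0.13 to 0.08) after ozone.

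The interaction asks whether the ozone change itself differed between diets, and edgeR called 0 of 9 and 0.0% of all genes. Unadjusted p was under 0.05 for 1 of the 9 and for 988 of all genes; DESeq2 called 0 of the 9 and 5 of all genes, limma-voom 0 and 2. Ano1 had the smallest p of the 9: its ozone change was 0.21 lower on the DHA diet on the log2 scale (-0.21, interval -0.40 to -0.03, adjusted p = 0.756). The Scnn1g change was 0.14 higher (-0.01 to 0.29, adjusted p = 0.842), and the Slc26a4 change differed by -0.26 (-0.94 to 0.41, adjusted p = 0.962). The calls of Ano1 on the control diet alone and of Scnn1g on the DHA diet alone are therefore not shown to differ between diets. For Slc26a4 the interval holds both no difference and a large one.

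**Figure D4:**
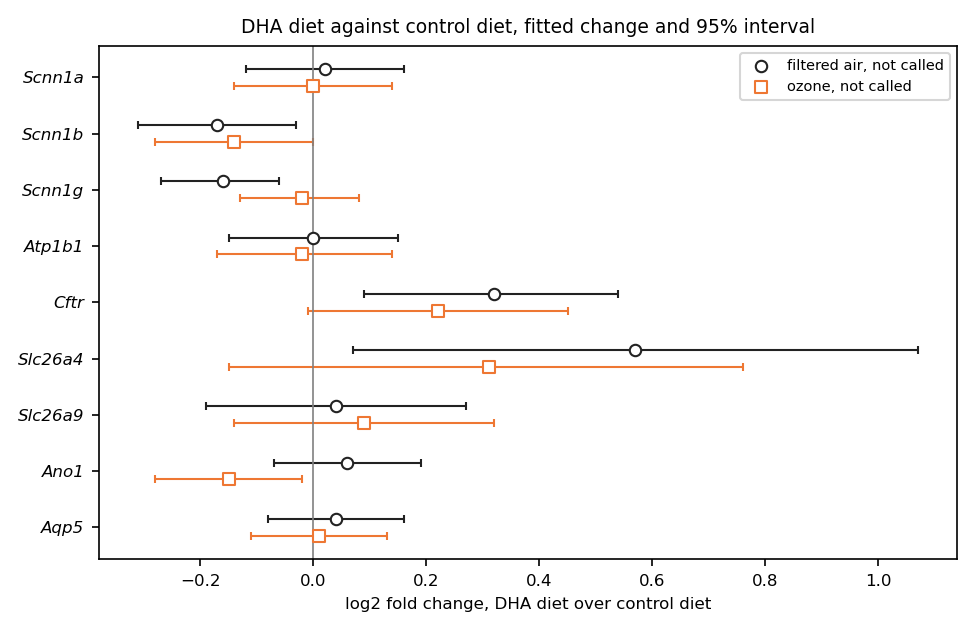
Fitted log2 fold changes of the DHA diet over the control diet with 95% intervals for the 9 genes (black circles air, orange squares ozone; none was called). Cftr and Slc26a4 lie right of 0 and Scnn1b left of 0 in both exposures, and the Scnn1g value moves from -0.16 in air to -0.02 after ozone.

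Genes around these transporters were read from 9 lists of 80 genes in all, of which 75 passed the filter on low counts. On the control diet 6 rose and 4 fell after ozone, 13.3% of the 75, and on the DHA diet 9 rose and 6 fell, 20%. These shares lie near the 16.8% and 23.7% of all genes.

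Among sodium pump genes other than Atp1b1, on the DHA diet the FXYD regulator Fxyd5 rose 1.18-fold and the beta subunit Atp1b2 fell to 0.777 of its air level. Both were lost without DHA-diet ozone libraries 1 and 2, Fxyd5 at an adjusted p of 0.15 and Atp1b2 at 0.0625, and Fxyd5 also without ozone library 1 alone (adjusted p = 0.0612, edgeR).

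Among 14 genes that set ENaC activity, 1 rose on the control diet, and 4 rose and 1 fell on the DHA diet. Tmprss4, a membrane protease able to cleave and activate ENaC, rose 1.48-fold (34.5 to 51.2 CPM, edgeR adjusted p = 2.4e-05) and 1.44-fold (35.3 to 50.9 CPM, edgeR adjusted p = 2.2e-05), with no overlap on either diet. Ranges did not overlap for 7.76% of all genes on the control diet and 9.03% on the DHA diet. On the DHA diet the proteases St14 (1.20-fold) and Furin (1.14-fold) rose, as did Sgk1 (1.22-fold), a steroid-induced kinase that keeps ENaC at the membrane. Nr3c1, the glucocorticoid receptor, fell to 0.911 of its air level. The Sgk1 call was lost without DHA-diet ozone libraries 1 and 2 (adjusted p = 0.0931), and the Nr3c1 call without DHA-diet air library 2 (0.0598) or 5 (0.0532).

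Among 14 other chloride and bicarbonate transport genes, 2 rose on the control diet, and 1 rose and 1 fell on the DHA diet. Slc9a3r1, the scaffold that tethers CFTR, rose 1.19-fold (139 to 166 CPM, edgeR adjusted p = 0.0148) and 1.17-fold (134 to 156 CPM, edgeR adjusted p = 0.0201). Its control-diet call was lost without air libraries 1 to 3 (adjusted p = 0.113), and its DHA-diet call without air library 1 (0.0519) or 3 (0.0515), without ozone library 4 (0.0573) and with the 2 groups fitted alone (0.0637). Clca1, a secreted goblet cell protein that modulates ANO1, rose 5.76-fold on the control diet (4.50 to 26.4 CPM, edgeR adjusted p = 0.0147). Only 2 of 6 ozone libraries were above every air library, and the call was lost without control-diet ozone library 6 (log2 value 1.63, adjusted p = 0.101, edgeR), without air libraries 1 to 3 (2.32, adjusted p = 0.121) and in limma-voom (1.86, adjusted p = 0.241). On the DHA diet Clca1 was at a mean of 3.10 CPM in air and 1.51 CPM after ozone, a log2 difference of -1.02 (-2.84 to 0.80, edgeR adjusted p = 0.435). Its interaction was -3.55 (-5.85 to -1.24, edgeR adjusted p = 0.658). The chloride channel gene Clcn2 fell to 0.803 on the DHA diet, a call lost in 26 of 36 alternatives.

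Potassium channels gave 0 calls of 8 on either diet by edgeR. On the control diet 1 had an unadjusted p under 0.05, DESeq2 called 0 and limma-voom called 1; on the DHA diet all 3 counts were 0. Kcnj15 had the smallest p on the control diet, with a fold of 1.17 (adjusted p = 0.0842), and Kcnq1 on the DHA diet, at 1.07 (adjusted p = 0.308). Of 7 other aquaporins, Aqp3, a water and glycerol channel of basal cells, fell to 0.592 on the control diet (3.73 to 2.22 CPM), a call lost in 21 of 36 alternatives. Without control-diet air libraries 1 to 3 its log2 value was -0.25 (adjusted p = 0.663, edgeR). On the DHA diet edgeR, DESeq2 and limma-voom called 0 of the 7, and 0 had an unadjusted p under 0.05. Of the 5 WNK pathway kinases, on the control diet Wnk2 fell to 0.696 and Stk39 rose 1.15-fold, calls lost in 11 and 27 of 36 alternatives. Without control-diet air libraries 1 to 3 the log2 value was -0.25 for Wnk2 (adjusted p = 0.416, edgeR) and 0.16 for Stk39 (adjusted p = 0.278, edgeR). Wnk2 was also the only one of the 75 genes called between diets in air, at 0.609 of the control-diet level, lost in 11 of 36 alternatives. Without those 3 libraries this log2 value was -0.45 (adjusted p = 0.287, edgeR).

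Tight junction genes gave 0 calls of 8 on the control diet by edgeR (3 with an unadjusted p under 0.05, 1 by DESeq2, 3 by limma-voom). On the DHA diet Cldn4 rose 1.34-fold and Ocln fell to 0.892, and the Cldn4 call was lost without ozone library 2 (adjusted p = 0.0677), without ozone libraries 1 and 2 (0.109) and with the 2 groups fitted alone (0.0537). Among 7 cAMP genes, the input that opens CFTR, the adenosine receptor Adora2b rose 1.35-fold and 1.33-fold, and the cyclase Adcy6 fell to 0.834 and 0.854, on the control and DHA diets. The control-diet Adora2b call was lost without air library 4 (adjusted p = 0.0558), libraries 1 to 3 (0.0744) or libraries 4 to 6 (0.084). Its DHA-diet call was lost without ozone library 1 (adjusted p = 0.0571), without ozone libraries 1 and 2 (0.0685) and with the 2 groups fitted alone (0.0511). Stat6, the transcription factor downstream of interleukins 4 and 13, fell to 0.923 and 0.914 of the air level. Its ranges did not overlap, as held for 7.76% and 9.03% of all genes. Il4, Il13 and Il17a were under the filter on low counts and were not tested.

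Alveolar type 2 markers were called higher after ozone for 4 of 6 genes on the control diet and 2 of 6 on the DHA diet. In air, 3 of 6 were called higher on the DHA diet than on the control diet. Without control-diet air libraries 1 to 3, edgeR called 0 of all genes for diet in air, so these 3 calls were lost. Their summed level was 23216 to 34795 CPM in control-diet air, 32500 to 33837 in control-diet ozone, 32886 to 36242 in DHA-diet air and 34461 to 37695 in DHA-diet ozone. In control-diet air, libraries 1 to 4 held 23216 to 26625 CPM, and libraries 5 and 6 held 34795 and 30879 CPM. Macrophage markers (Chil3, Marco, Siglecf and Mrc1) were called higher after ozone for 2 of 4 genes on the control diet and 3 of 4 on the DHA diet. Their summed level did not overlap between air and ozone on either diet: 147 to 245 CPM against 287 to 390 on the control diet, and 180 to 243 against 274 to 409 on the DHA diet. Most of the sum was Chil3, with medians in air and ozone of 135 and 245 CPM (control diet) and 141 and 242 CPM (DHA diet). Siglecf medians were 5.33 and 6.09 CPM, then 6.22 and 6.32 CPM, and those of Marco and Mrc1 were higher after ozone on both diets. Neutrophil markers (S100a8, S100a9, Retnlg and Csf3r) were called higher for 1 of 4 genes on the control diet and 4 of 4 on the DHA diet, where their median log2 change was 1.49. Their sums overlapped, at 38.9 to 165 CPM in control-diet air, 43.5 to 142 in control-diet ozone, 37.0 to 67.6 in DHA-diet air and 60.0 to 297 in DHA-diet ozone. In DHA-diet ozone, libraries 1 and 2 held 228 and 297 CPM, and libraries 3 to 6 held 60.0 to 87.1 CPM. The median sum was 48.4 CPM in DHA-diet air and 73.7 CPM in DHA-diet ozone. Calls of these markers without libraries 1 and 2 are not given here. The part of alveolar type 2 cells, macrophages and neutrophils in the Slc26a4, Scnn1g, Ano1 and Aqp5 results was not tested.

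The genes whose log2 CPM followed each transporter most closely over the 24 libraries were also listed, as a description: the libraries share group structure, depth and composition. Slc26a4 lay closest to Npc2 (Pearson r 0.92), Lgals3 (0.91) and Sftpd (0.90), and these values were 0.77, 0.74 and 0.68 once each group's mean was removed. All 3 rose after ozone on both diets, Lgals3 by 0.55 and 0.54 and Sftpd, a surfactant protein of alveolar type 2 and airway cells, by 0.41 and 0.30 on the log2 scale. Mab21l4 (0.84) was among the closest to Scnn1g. Scnn1b lay closest to Aldh3b1 (0.94), Tmem50b (0.92) and Cfap298 (0.92), with values of 0.86 to 0.90 after removal of group means. Aqp5 lay closest to Ccdc124, Mlf2 and Eif6 (0.88 each), and Ano1 to Pctp (0.84), Magi3 (0.81) and Arf3 (0.80). Atp1b1 lay closest to Il6ra (0.84), Slc26a9 to Parp3 (0.80), Cftr to Kdm1b (0.76) and Scnn1a to Atf6 (0.75).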

How the data were processed

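RNA from lung was sequenced in 24 libraries. The deposited values are raw counts of reads per gene, 1 table for all libraries, made by the authors with Partek, STAR and HTSeq on genome build mm39, per the submitters' processing notes; no source used here gives versions, filters or strand setting. Gene positions are those of the deposited table, whose start convention is not given. The deposited Scgb1a1 counts are rounded and enter the summed club markers as they stand.

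Counts were fitted with edgeR 4.0.16 in R 4.3.3 (TMM scaling, filterByExpr with a minimum count of 10 and total of 15, quasi-likelihood test, 1 mean per group, 20 residual degrees of freedom) for 5 contrasts, with Benjamini-Hochberg adjustment over 16153 genes. The fit was also run on counts simulated with its own dispersions and independent libraries, and that outcome is not reported here. No 2 libraries held identical counts. Alternatives were RLE scaling, library totals, 2 other filters on low counts, the replicate number as a block, an adjusted p under 0.01, DESeq2 1.42.0, limma-voom with quality weights (limma 3.58.1), the 2 groups alone and leaving out each library. Log2 CPM used a prior count of 2. Exon lengths are unions of GENCODE M21 exons.

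The 9 genes, the lists and the tests were chosen with earlier results of these data known. Named genes were the 9 transporters, up to 4 called genes with the smallest p per list and ozone comparison (up to 2 with the smallest p where none was called), called genes of the diet comparisons, and the 3 genes most correlated with each transporter; a few genes that the rule names are not reported here.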

Additional observations from a re-analysis of the deposited data

Results flagged for a closer look

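Each of the 9 genes was examined in each of the 4 groups for a library far from the other 5 by Dixon's criterion. Of the 36 sets, 3 held such a library, and chance alone gives about 1 in 20, or 1.8 of 36. Scnn1b stood at 289 CPM in control-diet ozone library 1, against 218 to 243 CPM in the other 5. Slc26a4 stood at 10.9 CPM in DHA-diet air library 4, against 5.51 to 6.71 CPM in the other 5. Slc26a9 stood at 40.0 CPM in DHA-diet ozone library 1, against 21.2 to 26 CPM in the other 5.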

How the results depend on the processing

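Of 1611 refits of single genes of the 9, 1511 kept their direction and side of the threshold, 13 lost a call, 8 gained one and 79 turned sign. Slc26a4 on both diets, Ano1 on the control diet and Scnn1g on the DHA diet were called in all 36 alternatives. With library totals in place of TMM, all-gene calls were 940 higher and 1737 lower on the control diet (1442 and 1271 with TMM), 1836 and 1832 on the DHA diet (2055 and 1769), and 72 and 113 for diet in air (117 and 69). At an adjusted p under 0.01, calls over all genes numbered 1245 for ozone on the control diet, 20 for diet in air and 2101 for ozone on the DHA diet. For diet in air (186), DESeq2 gave 589, limma-voom 849 and the 2 groups alone 359. Without control-diet air libraries 1 to 3, ozone on the control diet gave 1803 and diet in air 0; without libraries 4 to 6, diet in air gave 1551, diet after ozone 27 and the interaction 4. Without DHA-diet ozone libraries 1 and 2, diet in air gave 747. For diet after ozone (0), DESeq2 gave 75, limma-voom 19 and the 2 groups alone 2, and for the interaction (0) DESeq2 gave 5 and limma-voom 2. The number of the 9 called for diet in air was 1 (Scnn1g) in DESeq2 and without control-diet air libraries 4 to 6. The causes were not tested. These left-out sets were chosen after seeing the data.

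Leaving out each library gave 2045 to 3049 calls for ozone on the control diet, 3175 to 3973 on the DHA diet, 49 to 716 for diet in air, 0 to 144 for diet after ozone and 0 to 3 for the interaction. Of the 9 it called 3 on the control diet each time, 0 to 1 for diet in air and 2 to 4 on the DHA diet.

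Values that turned sign lay near 0. For ozone, Scnn1a was -0.02 (control diet) and -0.00 (DHA diet) with library totals, -0.02 in limma-voom (DHA diet), -0.07 without control-diet air libraries 4 to 6 and -0.04 without DHA-diet ozone libraries 1 and 2. For diet in air, Scnn1a was -0.00 with library totals and -0.08 without libraries 4 to 6, Ano1 -0.05 without libraries 4 to 6, Atp1b1 0.01 in limma-voom and 0.03 without libraries 1 to 3, and Aqp5 -0.03 without libraries 1 to 3. For diet after ozone, Scnn1a was -0.03 in limma-voom and -0.04, and Slc26a9 -0.05, without DHA-diet ozone libraries 1 and 2. For the interaction, Scnn1a was 0.02 and Atp1b1 0.01 with library totals, 0.09 and 0.04 without air libraries 4 to 6, Scnn1b -0.01 and Aqp5 0.04 without libraries 1 to 3, Slc26a9 -0.07 in limma-voom, and Slc26a9 -0.08 and Aqp5 0.01 without DHA-diet ozone libraries 1 and 2. With 1 library left out, log2 values ran as follows: Scnn1a -0.02 to 0.05 (ozone, each diet), -0.03 to 0.05 (diet in air), -0.02 to 0.03 (diet after ozone) and -0.04 to 0.03 (interaction); Slc26a9 -0.19 to 0.02, -0.02 to 0.08, -0.07 to 0.15 and -0.10 to 0.11 (ozone on the DHA diet, then as before); Atp1b1 -0.05 to 0.04, -0.05 to 0.03 and -0.05 to 0.04; Aqp5 -0.01 to 0.04 and -0.05 to 0.01; Scnn1g -0.04 to 0.00 (diet after ozone); Scnn1b -0.00 to 0.10 (interaction).

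Replicate numbers did not pair the libraries: deviations of same-numbered libraries correlated at -0.21 to 0.0966, and 0 of 24 libraries lay closest to one of their own number. With the replicate block, calls over all genes numbered 2327, 3433, 85, 0 and 0 (ozone on the control diet, ozone on the DHA diet, diet in air, diet after ozone, interaction), and of the 9 Aqp5 on the DHA diet was lost (adjusted p = 0.059, edgeR). Depth limits Slc26a4 most, at 57 to 498 counts per library.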
